A study of Mus musculus with 622 samples.

Results

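Sfmbt2, Gab1, Smoc1 and Slc38a4 are mouse genes known for non-canonical imprinting, and they were followed here in single preimplantation embryos with and without a paternal genome. They were chosen by symbol, 4 of the 23845 genes listed in every count table, and each symbol had 1 row. In the 88 fertilized embryos these genes were measured beside 437 parthenotes, which develop from an egg activated without sperm and carry only maternal chromosomes. At the morula stage Sfmbt2, Gab1 and Slc38a4 were higher in fertilized control embryos than in control parthenotes of both experiments, whereas Smoc1 was present in both kinds of embryo and its difference did not pass the test. At the 4-cell stage Gab1 and Slc38a4 already stood apart. Sfmbt2 and Smoc1 were found there in a minority of fertilized embryos and in a smaller share of parthenotes. Smoc1 was not shown to differ from parthenote controls of the miR-200c experiment at that stage.

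All embryos came from FVB/NJ mice, an inbred albino strain, with females of 5 to 7 weeks and males of 8 to 12 weeks. Parthenotes were made with strontium chloride, EGTA and cytochalasin B, and fertilized embryos by in vitro fertilization. Control zygotes were injected with GFP, and the others with a microRNA, miR-200c-3p in one experiment and miR-465c-3p in another, so that every embryo had been injected. Embryos were lysed singly for SMART-Seq at the late 2-cell (28 hours), 4-cell (46 hours) and compacted morula (70 hours) stages. The control groups at the last 2 stages were 21 fertilized 4-cell embryos and 23 fertilized morulae, 24 and 20 parthenotes of the miR-200c experiment (parth200), and 23 and 22 parthenotes of the miR-465c experiment (parth465). Parthenotes at the 2-cell stage were also collected, 28 controls in parth200 and 22 in parth465, and fertilized embryos were not analysed here at that stage. The fertilized embryos belong to the miR-200c work only, and their 4-cell and morula sheets are separate from those of the parthenotes, so fertilization and experimental run cannot be told apart. The same fertilized embryos stand in the comparisons with both parthenote experiments. Comparison with each parthenote experiment in turn, and of the parthenote experiments with each other, shows how far embryos of 1 kind differed between experiments. Eggs of about 5 females were pooled for each experimental replicate, so embryos of a group can share a mother, and p-values measure the spread between embryos.

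In non-canonical imprinting, the maternal allele carries trimethylated lysine 27 of histone H3 (H3K27me3) from the oocyte, placed by Polycomb repressive complex 2, and is silent in the early embryo while the paternal allele is transcribed. Canonical imprints instead rest on DNA methylation inherited from egg or sperm. Most non-canonical imprints are known to fade in the embryo proper, and some, including those of the 4 genes here, persist in extraembryonic tissue. The mice were inbred and the counts do not separate alleles, so what was compared is the total transcript of embryos with and without a paternal genome. In whole embryos, fewer cells using a gene and less RNA per cell cannot be told apart.

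Sfmbt2, a Polycomb-group protein gene needed for placental growth, lies at chr2:10370510-10595253 on the plus strand (mm10, GENCODE M21), and a large microRNA cluster sits inside it. Gab1, an adaptor protein downstream of receptor tyrosine kinases, lies at chr8:80764438-80880519 on the minus strand. Smoc1, a secreted calcium-binding matrix protein, lies at chr12:81026808-81186414 on the plus strand. Slc38a4, a neutral amino acid transporter of liver and placenta, lies at chr15:96994820-97055956 on the minus strand. The RefSeq promoter table (GRCm38.p6) held entries for 3 of the 4, and the 300 bases around 1 annotated start of each are shown because H3K27me3 and DNA methylation, the marks that set the 2 kinds of imprint, act at such regions. Capitals mark CG, the dinucleotide that DNA methylation modifies, read on both strands alike and overlapping no other motif searched.
Sfmbt2, chr2:10370201-10370500, plus strand: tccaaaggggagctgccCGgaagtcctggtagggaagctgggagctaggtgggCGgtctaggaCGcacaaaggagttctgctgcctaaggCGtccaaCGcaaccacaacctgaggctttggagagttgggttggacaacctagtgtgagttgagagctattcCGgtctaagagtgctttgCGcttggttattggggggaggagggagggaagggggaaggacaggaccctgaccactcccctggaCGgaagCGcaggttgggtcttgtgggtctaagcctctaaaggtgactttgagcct
Gab1, chr8:80880470-80880769, minus strand: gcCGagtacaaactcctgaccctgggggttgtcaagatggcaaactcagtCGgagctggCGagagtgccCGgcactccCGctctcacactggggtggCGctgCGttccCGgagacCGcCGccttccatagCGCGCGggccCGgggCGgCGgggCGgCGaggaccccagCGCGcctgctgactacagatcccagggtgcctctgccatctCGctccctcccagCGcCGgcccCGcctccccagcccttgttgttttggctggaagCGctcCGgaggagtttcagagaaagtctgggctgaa
Slc38a4, chr15:97055907-97056206, minus strand: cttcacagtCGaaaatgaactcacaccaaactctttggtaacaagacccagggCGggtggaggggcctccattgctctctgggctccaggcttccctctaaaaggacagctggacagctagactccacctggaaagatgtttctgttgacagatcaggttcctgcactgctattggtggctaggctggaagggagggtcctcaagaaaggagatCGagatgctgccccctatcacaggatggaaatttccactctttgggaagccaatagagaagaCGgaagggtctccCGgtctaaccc
The Sfmbt2 window holds 9 CG and the Gab1 window 26. The Slc38a4 window holds 5. Across 32851 promoters of the same length the median was 7, with quartiles at 3 and 20, and 94.6% held at least 1. The Gab1 window held more than 83.1% of promoters and the Slc38a4 window more than 38.0%, so the 3 starts differ widely in CG content. A second Sfmbt2 start, at chr2:10372186-10372485, had 16 CG, a second Gab1 start had 28, and 2 further Slc38a4 starts had 5 each.

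Before the members, the embryos were checked against their labels. Total counts in the 133 control embryos at the 4-cell and morula stages ran from 584100 to 6352744, and 7 of all 525 embryos were under 1000000 counts. No parthenote had a count of any of the 4 Y-linked genes checked, in 437 embryos, whereas 11 of 21 fertilized 4-cell controls and 11 of 23 fertilized morula controls had at least 1. Summed transcripts of 8 sperm genes were at most 8.37 CPM (counts per 1000000 counts of the same embryo) in any of these control groups and at most 1.04 CPM in fertilized morulae. Control fertilized morulae 2, 12 and 20 stood apart: Gab1 was 0 to 3.84 CPM in them, and the paternally expressed Impact and Kcnq1ot1 were at most 3.69 and 0.399 CPM. In the other 20 fertilized morulae Gab1 was 22.9 to 205 CPM. Paternally expressed Snurf was 0.264 to 47.8 CPM in the 3, against at most 0.688 CPM in 42 control parthenote morulae. Results at the morula stage are therefore also given without these 3 embryos, a choice made after seeing the data. Low Gab1 was part of that choice, so a larger difference without them follows from it and is no independent check of the members.

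**Figure D1:**
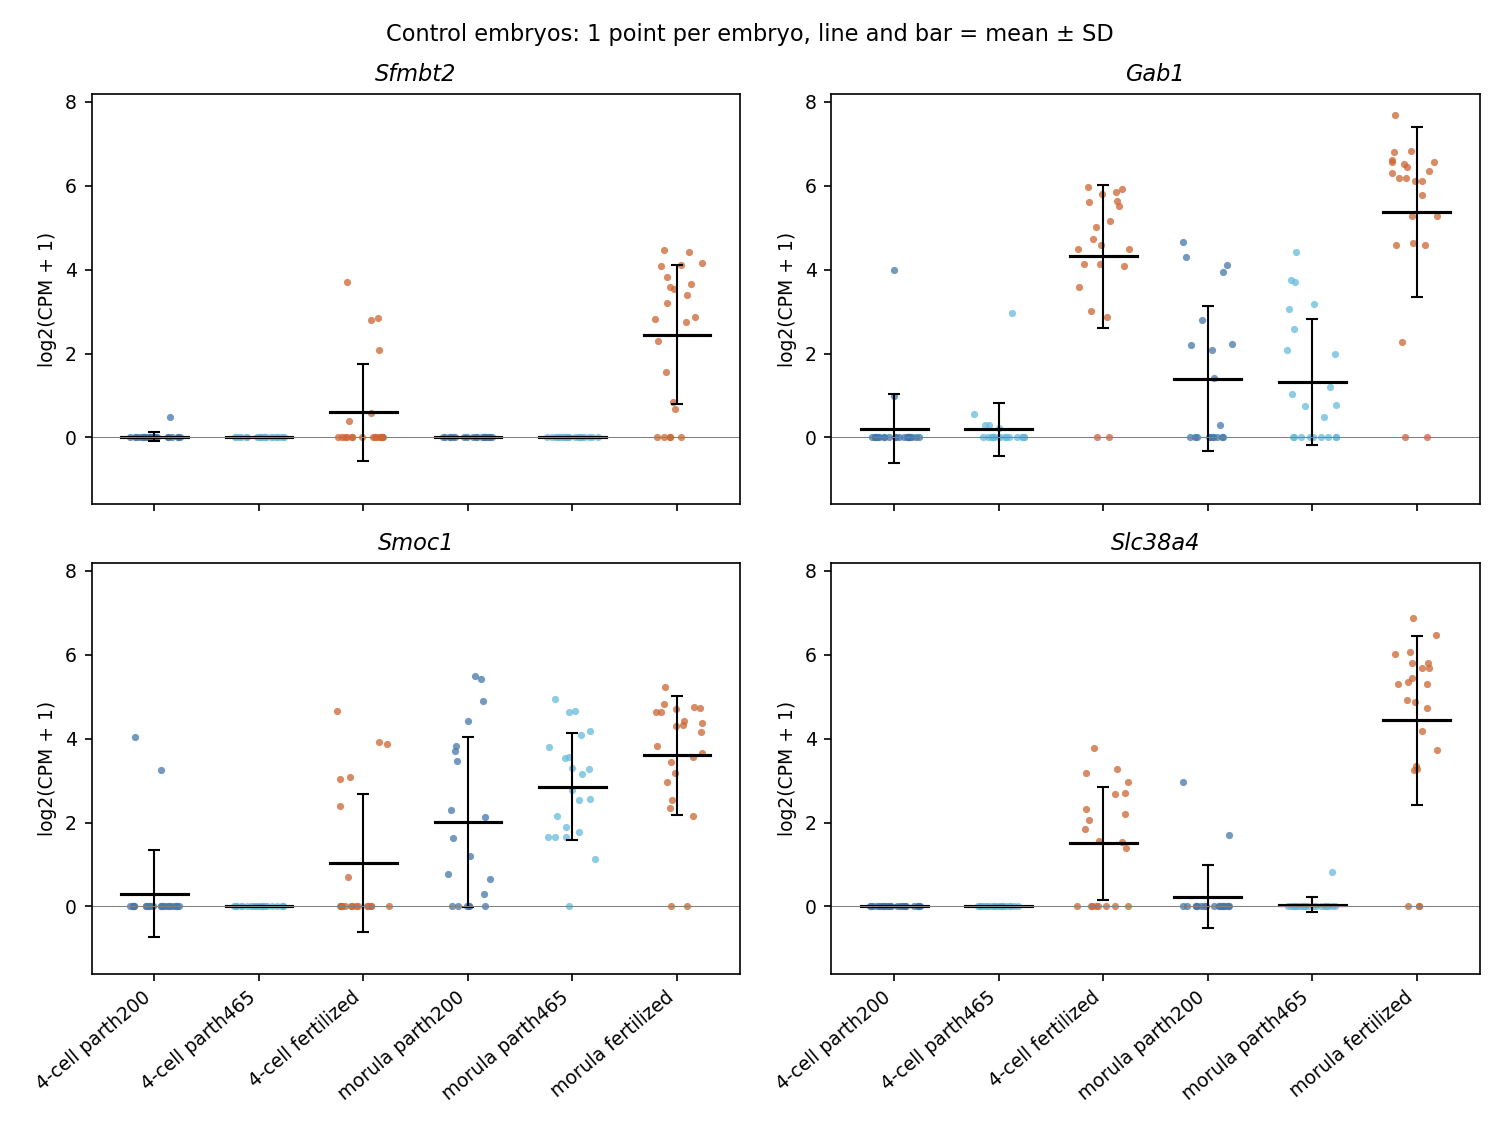
Level of each gene in every control embryo (vertical axis, log2 of CPM plus 1) at the 4-cell and morula stages, with 1 point per embryo and lines and bars for the mean ± SD of the log2 values, in orange for fertilized embryos, dark blue for parth200 and light blue for parth465. Sfmbt2 and Slc38a4 points of parthenotes lie at or near 0, except Slc38a4 in 2 parth200 morulae at 6.81 and 2.25 CPM. Gab1 separates most embryos at both stages, and Smoc1 morulae overlap, with parthenotes reaching 43.7 CPM.

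Sfmbt2 was the least abundant of the 4 per transcript length, at 0.858 CPM per kb in fertilized morulae, and was found in the fewest parthenotes. Among fertilized control morulae its level had a lowest value of 0, a median of 6.29 and a highest of 20.99 CPM (7.83 ± 7.03, SD, n = 23), with a count in 18 of 23 embryos. No count was found in any of the 20 parth200 or 22 parth465 control morulae. The groups therefore met only where fertilized embryos were themselves at 0, and 18 of 23 lay above every parthenote. A count of 0 over each group allows a level of up to 0.0443 CPM in parth200 and 0.0393 CPM in parth465 (a floor of 3 counts over the group, counting error only), so Sfmbt2 was at least 182-fold and at least 204-fold higher in fertilized morulae. The gene missed the filter on low counts in controls, so it was compared by a two-sided permutation test of log2(CPM + 1) with 100000 resamples, which gave p = 2e-05 against each parthenote experiment, the smallest value these resamples allow. This test was run 16 times over the members that missed the filter in 1 comparison or another.

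Earlier, in the 4-cell embryo, Sfmbt2 had a count in 6 of 21 fertilized controls, with a median of 0 and a highest value of 12.1 CPM (1.35 ± 3.11, SD, n = 21). Of the parthenotes, 1 of 24 in parth200 had a count, at 0.395 CPM, and 0 of 23 in parth465. Only 5 fertilized embryos lay above all parthenotes, so most embryos of the 2 kinds overlapped at 0. The pooled counts gave a ratio of 33.8 over parth200 (95% exact counting interval 9.03 to 284, from 2 parthenote counts) and at least 28.5 over parth465. Such an interval covers counting error only and leaves out the spread between embryos. Permutation p-values were 0.0209 and 0.0145.

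Counts of Sfmbt2 were rare in parthenotes at any stage or treatment. It was seen in 10 of 437 (2.29%), of which 3 were 2-cell, 3 were 4-cell and 4 were morula embryos. The highest of these, 11.6 CPM, was a 2-cell embryo with miR-465c-3p, followed by 8.96 CPM in a 4-cell embryo with the high dose of miR-200c-3p, and all other parthenotes were under 5 CPM. In the order of mean levels over the 8 control groups, fertilized morulae came first and fertilized 4-cell embryos second. The next, parth465 2-cell embryos at 0.199 ± 0.935 CPM (n = 22), rested on single embryos, and neighbours from the third place down did not differ beyond their spread.

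Gab1 was the member found in most fertilized embryos at the 4-cell stage, in 19 of 21 controls. In fertilized 4-cell controls it had a lowest value of 0, a median of 22.99 and a highest of 61.4 CPM (28.9 ± 20.2, SD, n = 21). Parthenote 4-cell controls had a count in 2 of 24 embryos of parth200 (0.658 ± 3.02 CPM, highest 14.8) and in 5 of 23 of parth465 (0.346 ± 1.42 CPM, highest 6.85). Thus 16 of 21 fertilized embryos lay above the highest parthenote, and no parthenote reached the fertilized median. By edgeR's quasi-likelihood test with Benjamini-Hochberg adjustment, Gab1 was higher in fertilized embryos by 5.57 on the log2 scale against parth200 (SE 0.80, adjusted p = 1.02e-06) and by 7.35 against parth465 (SE 0.92, adjusted p = 9.72e-09). The parth200 mean rested on the embryo at 14.8 CPM, the other being at 0.991, and without it the difference was 8.33 (adjusted p = 2.18e-13, edgeR). Without the highest parth465 embryo it was 8.28 (adjusted p = 5.92e-11, edgeR). Both embryos were left out for their high Gab1, so the larger differences follow from that choice and are no independent check. Gab1 was the 1 member of 4 to pass the count filter at this stage. Of 10008 genes tested, 5.26% were called higher in fertilized embryos against parth200 and 10.7% against parth465 at an adjusted p under 0.05.

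In fertilized morulae Gab1 had a lowest value of 0, a median of 71.9 and a highest of 205 CPM (66.7 ± 46.4, SD, n = 23), with counts in 21 embryos. Parthenote morulae were no longer empty: 10 of 20 in parth200 (4.61 ± 7.51 CPM, highest 24.4) and 13 of 22 in parth465 (3.44 ± 5.45 CPM, highest 20.5) had counts. Of the fertilized morulae 17 of 23 were above the highest parthenote, and those that were not included the 3 embryos named above. The log2 difference was 3.86 against parth200 (SE 0.65, adjusted p = 1.62e-05, edgeR) and 4.34 against parth465 (SE 0.64, adjusted p = 1.52e-07). Without the 3 embryos the differences were 4.06 and 4.54, by the same edgeR test.

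Slc38a4 was at 0 in all 47 control parthenotes of the 4-cell stage. Fertilized 4-cell controls had a lowest value of 0, a median of 1.93 and a highest of 12.7 CPM (3.16 ± 3.59, SD, n = 21), and the 13 embryos with a count all exceeded every parthenote. The floor of 3 counts puts the pooled level at least 67.6-fold above parth200 and at least 85.4-fold above parth465. Both permutation p-values were 2e-05.

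Fertilized morulae spanned 0 to 116 CPM of Slc38a4 with a median of 38.3 (36.5 ± 29.5, SD, n = 23), and 20 of 23 had a count. Of the parthenote morulae, 2 of 20 in parth200 had a count, the higher at 6.81 CPM (0.453 ± 1.58 for the group), and 1 of 22 in parth465, with 2 counts. All 20 fertilized morulae with a count lay above every parthenote, the cleanest separation of the 4 genes. The edgeR log2 difference from parth200 was 6.61 (SE 0.62, adjusted p = 6.16e-13). Against parth465 the pooled ratio was 1542 (95% exact counting interval 426 to 12739, counting error only, without the spread between embryos), and edgeR gave an adjusted p of 8.74e-17. Without the 3 embryos the parth200 difference was 6.80, and without the parth200 embryo at 6.81 CPM it was 8.27, by edgeR. That parthenote was left out for its high Slc38a4, so the larger difference follows from the choice.

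Smoc1 behaved differently at the morula stage. Its level in fertilized control morulae ran from 0 through a median of 17.003 to 36.5 CPM (15.5 ± 9.92, SD, n = 23). Parthenote morulae ran from 0 through 1.70 to 43.7 CPM in parth200 (9.10 ± 13.9, n = 20) and from 0 through 6.85 to 29.6 CPM in parth465 (9.18 ± 8.30, n = 22). The groups overlapped over their whole range: no fertilized morula exceeded the highest parthenote, and 8 of 42 parthenotes were above the fertilized median. The log2 difference was 0.77 against parth200 (SE 0.53, adjusted p = 0.361, edgeR) and 0.82 against parth465 (SE 0.51, adjusted p = 0.221). Without the 3 embryos these were 0.89 (adjusted p = 0.269) and 0.94 (adjusted p = 0.149). A difference was not shown, which is not evidence that the levels were equal. Of 10361 genes tested at this stage, 6.17% were called higher in fertilized morulae against parth200 and 16.2% against parth465, while Gab1 and Slc38a4 were called in both and Smoc1 in neither.

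Smoc1 was sparse at the 4-cell stage. Fertilized controls had a count in 7 of 21 embryos, with a median of 0 and a highest value of 24.1 CPM (3.40 ± 6.51, SD, n = 21), against 2 of 24 parth200 embryos (0.992 ± 3.51 CPM) and 0 of 23 parth465 embryos. A single fertilized embryo exceeded the highest parthenote, at 15.3 CPM, so overlap was nearly complete against parth200. Permutation p-values were 0.0939 against parth200 and 0.00576 against parth465. The pooled ratio was 3.48 over parth200, and at least 86.5 over parth465 from the floor of 3 counts. That floor covers counting error only and leaves out the spread between embryos. The order of mean levels also set Smoc1 apart, since parthenote morulae of both experiments ranked above fertilized 4-cell embryos, which was not the case for the other 3 genes.

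**Figure D2:**
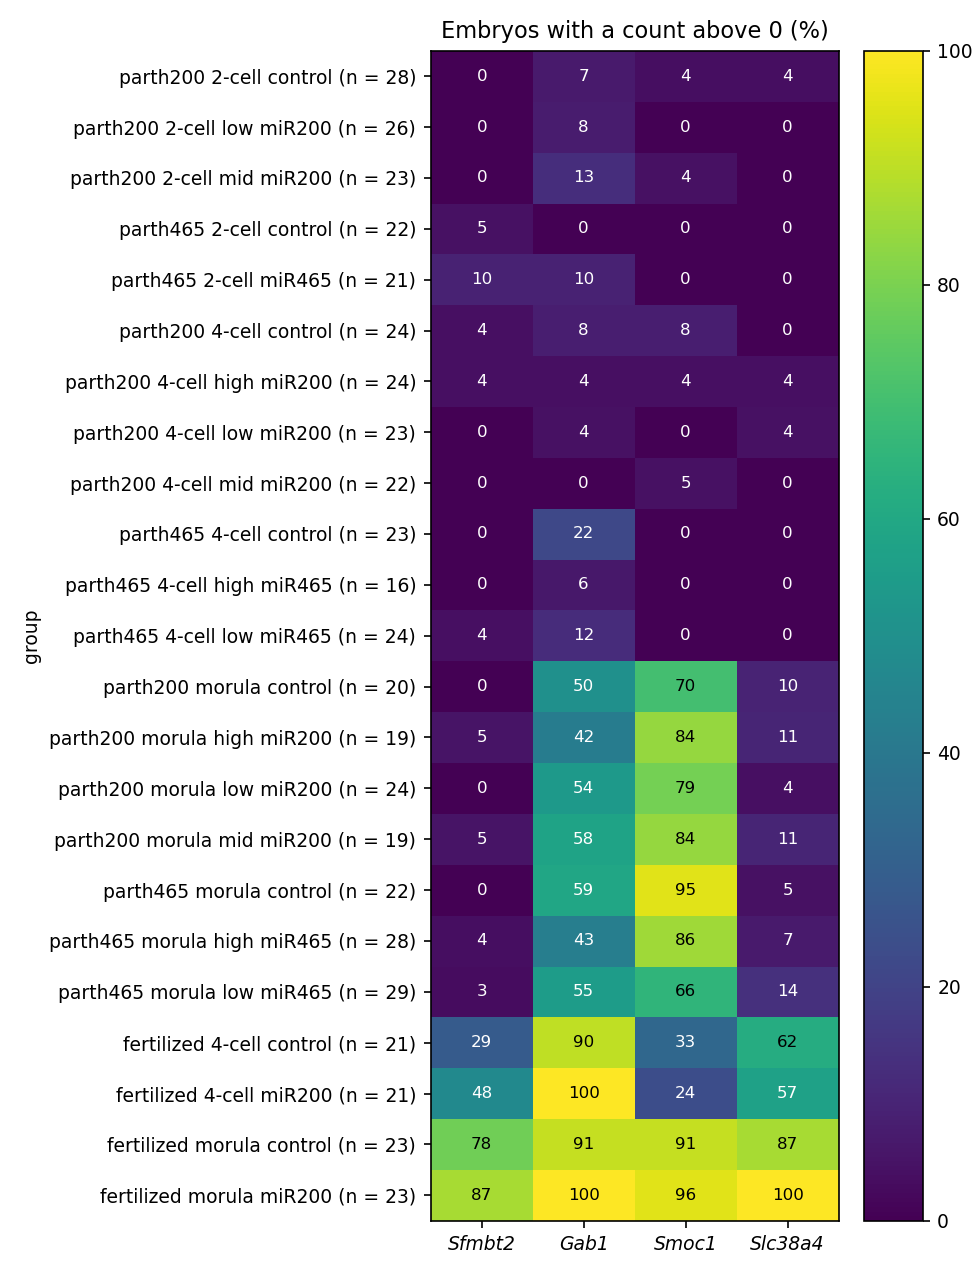
Share of embryos with a count above 0 (percent, colour and printed value) for each gene (columns) in each of the 23 embryo groups (rows; miR200 and miR465 stand for injected miR-200c-3p and miR-465c-3p). Sfmbt2 was found in 2.29% of all parthenotes, and Smoc1 was found in most morulae of both kinds.

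Scaled to transcript length, the members ranked in fertilized control morulae as Gab1 with 13.1 CPM per kb, Slc38a4 with 8.58, Smoc1 with 4.42 and Sfmbt2 last. In 18 of these 23 morulae all 4 genes had a count, and in 1 embryo none had. No parthenote of any stage or treatment had counts of all 4. Morula parthenotes of the control groups carried counts of 3 members in 2 of 20 (parth200) and 1 of 22 (parth465).

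The 2 parthenote experiments were set against each other to show how far such embryos differ without fertilization. Gab1 differed by -1.78 on the log2 scale at the 4-cell stage (parth465 minus parth200, SE 0.80, adjusted p = 0.0859, edgeR). This became a call in DESeq2 (-2.77, adjusted p = 0.0112) and in embryos of at least 1000000 counts (-2.73, adjusted p = 0.00353, edgeR). With the embryo number of the title as a block the difference turned to 0.43 (adjusted p = 0.672, edgeR). At the morula stage Gab1 differed by -0.48 (adjusted p = 0.656). For Smoc1 at the morula stage the difference was -0.05 (adjusted p = 0.960). Slc38a4 was lower in parth465 morulae with an adjusted p of 0.0497 in edgeR, on 2 counts against 20, and the call was lost without the count filter (adjusted p = 0.0599). As background, 15.3% of genes at the 4-cell stage and 10.1% at the morula stage were called lower in parth465 than in parth200, more than the share called lower in fertilized embryos against parth200.

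**Figure D3:**
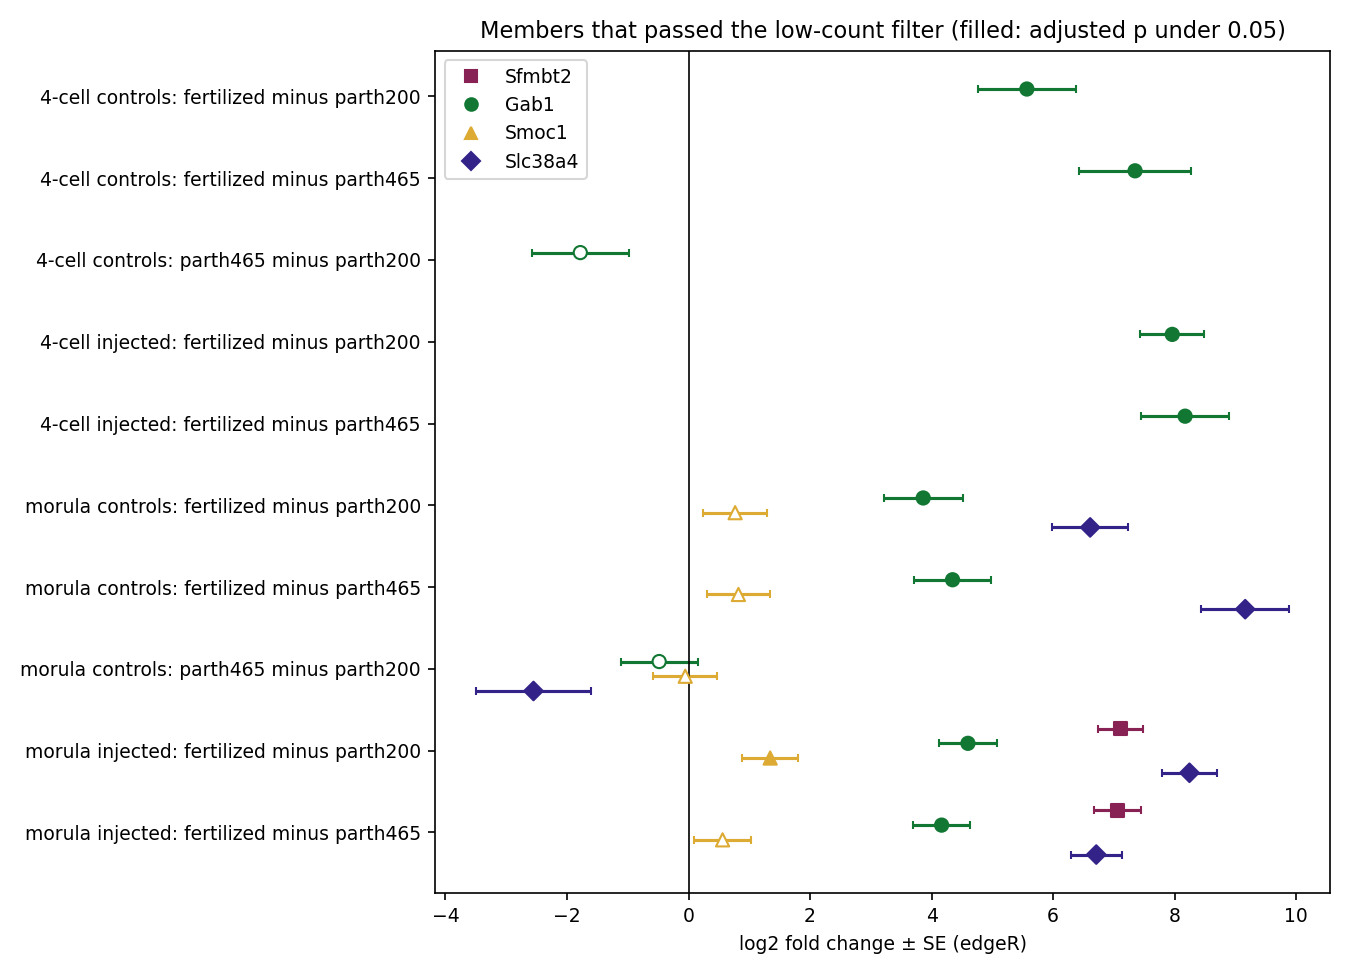
Log2 difference, fertilized minus parthenote, or parth465 minus parth200, for members that passed the count filter in edgeR, with bars of 1 SE and filled symbols for an adjusted p under 0.05, in control and microRNA-injected embryos. Gab1 and Slc38a4 lie at 3.86 or more in each comparison of fertilized embryos with parthenotes (the Slc38a4 value against parth465 control morulae rests on 2 parthenote counts), and Smoc1 controls lie at 0.77 and 0.82.

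The microRNA-injected embryos gave a second set of fertilized and parthenote embryos, none of which is a control above. Fertilized embryos with miR-200c-3p (21 at the 4-cell stage, 23 morulae) were compared with all injected parthenotes of each experiment, 69 and 40 at the 4-cell stage and 62 and 57 at the morula stage. The microRNA and dose differ between these groups, and the fertilized embryos are shared by both comparisons. Per the labels, all treatments were run in parallel each day, so the injected embryos are no independent repeat of the controls. Fertilization and experimental run cannot be told apart here either. Gab1 in injected fertilized 4-cell embryos ran from 9.40 through 25.96 to 86.8 CPM, and all 21 lay above the highest of 109 parthenotes, 7.14 CPM. The log2 differences were 7.96 (adjusted p = 3.98e-25) and 8.17 (adjusted p = 5.16e-18) by edgeR, against a background of 9.1% and 15.7% of genes called higher.

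Slc38a4 in injected fertilized 4-cell embryos had a count in 12 of 21, against 2 of 69 and 0 of 40 parthenotes, with permutation p-values of 2e-05 and 4e-05. Sfmbt2 had a count in 10 of 21, against 1 of 69 and 1 of 40, with a permutation p of 4e-05 in both. The highest Sfmbt2 parthenote, at 8.96 CPM, exceeded all but 1 of the fertilized embryos. Smoc1 had a count in 5 of 21, against 2 of 69 and 0 of 40, with permutation p-values of 0.00444 and 0.00698.

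Among injected morulae Sfmbt2 ran from 0 through 6.61 to 21.8 CPM in 23 fertilized embryos, and 20 lay above the highest of 119 parthenotes, 1.15 CPM. It passed the count filter there and was higher by 7.10 (SE 0.37, adjusted p = 7.70e-35) and 7.06 (SE 0.38, adjusted p = 1.26e-33) in edgeR. Slc38a4 ran from 3.13 through 22.3 to 102 CPM, with 21 of 23 above the highest parthenote, and its log2 differences were 8.24 and 6.71. Gab1 ran from 25.98 through 65.7 to 133 CPM, with 18 of 23 above the highest parthenote, and its differences were 4.60 and 4.16. These embryos showed the same 3 genes set apart as the controls did.

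Smoc1 again overlapped in injected morulae, at 15.8 ± 12.95 CPM in fertilized embryos (n = 23) and at 6.502 ± 9.60 (n = 62) and 10.7 ± 12.8 (n = 57) in parthenotes. It was called higher against parth200 (1.34, SE 0.46, adjusted p = 0.0156, edgeR) and not against parth465 (0.56, SE 0.47, adjusted p = 0.401). No fertilized morula exceeded the highest parthenote, at 61.3 CPM. The background share called higher was 17.3% against parth200 and 14.6% against parth465.

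From the 4-cell stage to the morula, the members followed different courses. In fertilized controls Slc38a4 rose by 3.55 on the log2 scale (SE 0.75, adjusted p = 2.56e-05), Sfmbt2 by 2.55 (SE 0.82, adjusted p = 0.00615) and Smoc1 by 2.26 (SE 0.86, adjusted p = 0.0205), in an edgeR fit of the 8 control groups. Gab1 differed by 1.26 (SE 0.69, adjusted p = 0.114), short of the threshold. Over 13027 genes, 28.3% were called higher at the morula stage in fertilized embryos.

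Parthenotes gained Gab1 and Smoc1 over the same interval. Gab1 rose by 3.00 in parth200 (SE 0.76, adjusted p = 0.000397) and by 4.33 in parth465 (SE 0.87, adjusted p = 7.28e-06), by edgeR. Smoc1 rose by 3.27 in parth200 (SE 0.87, adjusted p = 0.000803), and in parth465 it went from 0 of 23 embryos to 21 of 22, a pooled increase of at least 271-fold. Slc38a4 was also called higher in parth200 morulae (adjusted p = 5.78e-05, edgeR), from 0 counts in 24 embryos to 20 counts in 2 of 20, a pooled increase of at least 6.59-fold. In parth465 it went from 0 to 2 counts (adjusted p = 0.155), and Sfmbt2 had no count in parthenote morulae. The backgrounds were 25.8% of genes called higher in parth200 and 26.9% in parth465. The stage change was compared between fertilized and parthenote embryos by an interaction term. For Gab1 this gave -1.74 (adjusted p = 0.424) against parth200 and -3.07 (adjusted p = 0.0612) against parth465, in the same edgeR fit. For Smoc1 it gave -1.01 against parth200 (adjusted p = 0.798) and an adjusted p of 0.000879 against parth465, where the 4-cell parthenotes held no count. For Slc38a4, with no count in 4-cell parthenotes, the adjusted p was 0.403 and 0.854, and for Sfmbt2, with none in parthenote morulae, 0.168 and 1. Of all genes 3.02% and 4.74% had such an interaction.

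At the 2-cell stage the members were nearly absent from control parthenotes. Of the 28 embryos of parth200, 4 had a count of 1 member, and of the 22 of parth465, 1 had. The highest mean of any member was 0.504 ± 2.67 CPM, for Smoc1 in parth200. Members called by edgeR between these stages were Sfmbt2 in parth465 (1 of 22 embryos at the 2-cell stage and 0 of 23 at the 4-cell stage, adjusted p = 0.00143), Slc38a4 in parth200 (1 of 28 and 0 of 24, adjusted p = 0.00811) and Gab1 in parth465 (0 of 22 and 5 of 23, adjusted p = 0.0326). The first and second of these, both lower at the 4-cell stage, rested on a single embryo. Over all genes 35.5% were called lower in parth200, and 35% lower and 31.1% higher in parth465.

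Fertilized morulae differed among themselves in all 4 genes, and the genes tended to be high or low together. Over the 23 control morulae Pearson's r of log2(CPM + 1) was 0.73 for Sfmbt2 and Gab1 (permutation p = 2e-05, Spearman's rho 0.69, permutation p = 0.00041) and 0.77 for Sfmbt2 and Slc38a4 (permutation p = 2e-05, rho 0.66, permutation p = 0.00098). Adjusted over the 12 correlations computed, those for r were 0.00012 in both cases, and without the 2 embryos farthest from the median r was 0.74 and 0.73. For Gab1 and Slc38a4 r was 0.74 (permutation p = 0.00069, adjusted 0.00207, rho 0.74, permutation p = 9e-05, 0.79 without 2 embryos). The largest was Gab1 and Smoc1 at 0.79 (permutation p = 0.00023, adjusted 0.00092, rho 0.66, permutation p = 0.0006). It dropped to 0.36 without the 2 embryos farthest from the median, but was 0.645 without the 3 embryos that stood apart. The lower pairs were Smoc1 with Slc38a4 (0.58, permutation p = 0.0064, rho 0.58, permutation p = 0.00436, 0.45 without 2 embryos) and with Sfmbt2 (0.50, permutation p = 0.0137, rho 0.42, permutation p = 0.0461, 0.61 without 2 embryos). Leaving out the 3 embryos that stood apart gave r from 0.32 to 0.68.

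In the 23 injected fertilized morulae r was lower than in controls for 5 of the 6 pairs and higher for Smoc1 and Slc38a4. It ran from 0.21, for Gab1 and Slc38a4 (permutation p = 0.330, rho 0.23, permutation p = 0.295), to 0.64, for Smoc1 and Slc38a4 (permutation p = 0.00096, rho 0.60, permutation p = 0.00345). For Sfmbt2 and Slc38a4 r was 0.54 (permutation p = 0.00815, rho 0.54, permutation p = 0.00928), rising to 0.67 without 2 embryos. The pair of Gab1 and Slc38a4 was thus among the closest in controls and the loosest in injected embryos, a difference that was not tested. Embryo-wide depth and stage are shared by both genes of a pair.

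**Figure D4:**
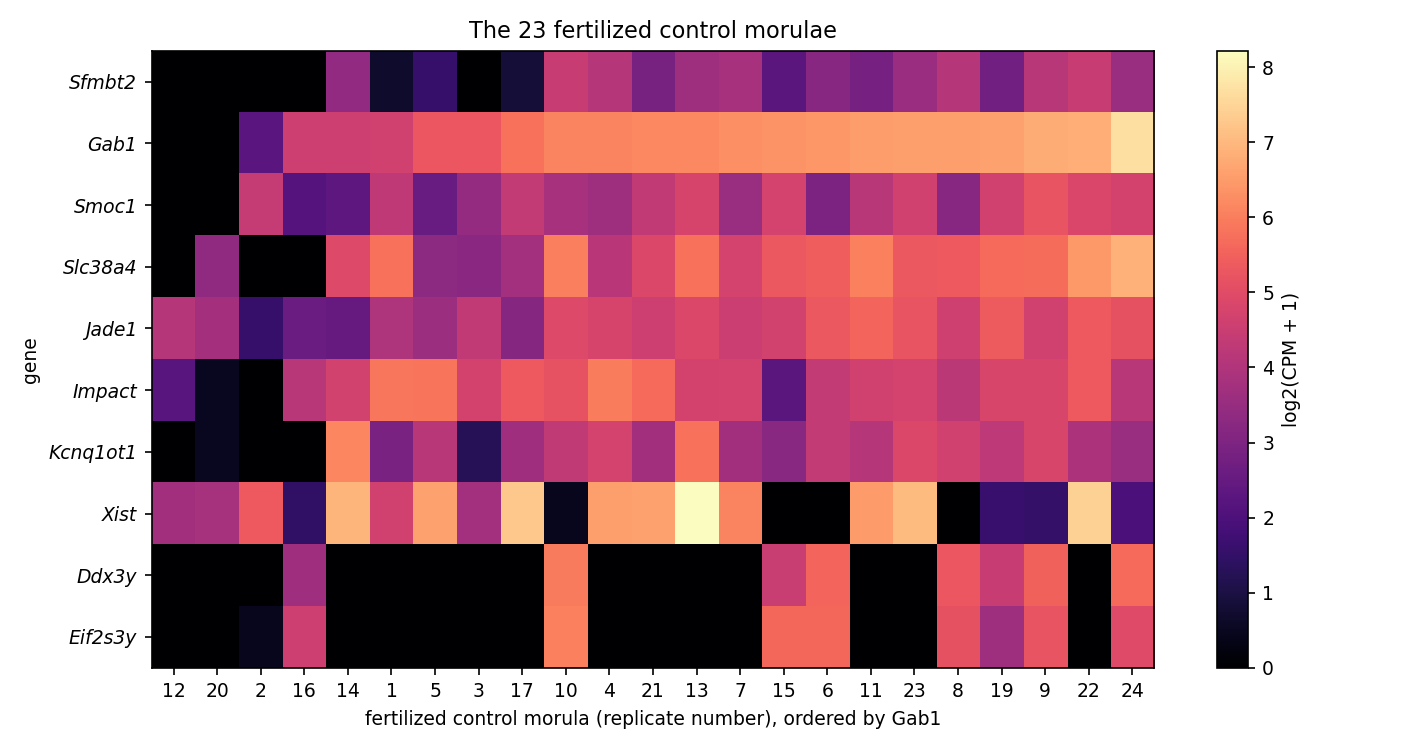
Level of each gene (rows; colour, log2 of CPM plus 1) in the 23 fertilized control morulae, 1 column per embryo, ordered by Gab1, with Jade1, Impact, Kcnq1ot1, Xist and the Y-linked Ddx3y and Eif2s3y below the 4 members. Morulae 2, 12 and 20 are at the low end of Gab1, at 0 to 3.84 CPM.

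Sex was read from Y-linked counts in fertilized controls. The 4 members summed to 26.4 through 162 to 358 CPM in the 8 fertilized morulae with more than 3 Y-linked counts, and to 0 through 97.7 to 247 CPM in the other 15, and the ranges overlapped. The 3 embryos that stood apart, at 0 to 24.2 CPM, are all among the 15, and the remaining 12 ran from 53.1 through 119 to 247 CPM. Xist, the X-inactivation RNA and itself a gene with a maternal H3K27me3 imprint, was at most 2.92 CPM in the former and 12.2 to 296 CPM in the latter, with no overlap at the morula stage. In 4-cell controls Xist overlapped, at 0 to 116 CPM in the 11 embryos with more than 3 Y-linked counts and 1.75 to 92.5 CPM in the other 10. Of the control parthenote morulae, 18 of 20 in parth200 (32.8 ± 45.7 CPM) and 17 of 22 in parth465 (9.35 ± 13.9 CPM) had Xist counts. Over all 23 fertilized morulae, Xist (62.3 ± 76.0 CPM) was higher than in parth465 (2.79, SE 0.68, adjusted p = 0.00104, edgeR) and not shown to differ from parth200 (0.92, SE 0.65, adjusted p = 0.375).

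The other genes reported to carry maternal H3K27me3 imprints were taken from a list of 12, of which 9 were in the tables. A gene passes the count filter through the group in which it is high, so counts among tested genes describe the list and are no support for it. At the morula stage 8 were tested, and 7 were called higher in fertilized embryos against parth200 and 8 against parth465, with median log2 differences of 4.05 and 3.67 (all genes 0.00 and -0.00). Of all genes 6.17% and 16.2% were called higher. None was lower in edgeR, at an unadjusted p under 0.05 (0 genes) or in DESeq2 (0 genes). Without the 3 fertilized morulae 7 were tested and 6 and 7 called higher. Bbx, an HMG-box transcription factor, was at 62.1 ± 49.4 CPM in fertilized morulae and 0.876 ± 1.40 and 0.730 ± 0.964 in parthenotes, differences of 6.18 (adjusted p = 8.54e-15) and 6.48 (adjusted p = 7.97e-17) in edgeR. Etv6, an ETS transcriptional repressor, was higher by 4.41 and 4.87. Jade1, a scaffold of histone acetyltransferase complexes, was higher by 4.46 and 3.10, and Rbms1, an RNA-binding protein, by 3.94 and 3.66.

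The homeobox gene Otx2 was higher in fertilized morulae by 4.16 (adjusted p = 0.000101) and 3.69 (adjusted p = 4.35e-05) in edgeR. Runx1, a transcription factor of blood formation, was at 7.08 ± 5.33 CPM in fertilized morulae, at 0.720 ± 2.13 in parth200 and at 0 in all 22 parth465 embryos. At the 4-cell stage 5 of the list were tested, 3 called higher against parth200 and 5 against parth465 (5.26% and 10.7% of all genes), with medians of 3.01 and 5.67 (all genes -0.08 in both). Bbx had no count in any of 47 control parthenotes there, against 14.6 to 247 CPM in the 21 fertilized embryos. Jade1 at that stage was at 28.8 ± 33.4 CPM in fertilized embryos and 23.6 ± 52.0 in parth200, which overlapped (adjusted p = 0.786, edgeR), and at 2.04 ± 5.53 in parth465 (adjusted p = 0.0037). Jade1 was thus called at the 4-cell stage against 1 parthenote experiment and not the other.

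Paternally expressed genes with a DNA-methylation imprint numbered 28, of which 10 passed the filter at the morula stage. There 5 were called higher against parth200 and 9 against parth465 in edgeR, with medians of 2.16 and 2.92, where 6.17% and 16.2% of all genes were called higher. None was called lower by edgeR or DESeq2, and at an unadjusted p under 0.05 this held 0 genes against parth200 and 1 against parth465. Without the 3 fertilized morulae 5 and 8 were called higher. Snurf, from the Prader-Willi locus, was at 238 ± 139 CPM in fertilized morulae and at most 0.688 CPM in 42 parthenotes. Impact, a translation regulator, was higher by 3.41 (adjusted p = 1.54e-08) and 3.94 (adjusted p = 2.36e-11), and Peg3, a zinc-finger protein, by 5.17 and 6.07, by edgeR. In 4-cell embryos 8 passed, with 3 and 4 called higher (5.26% and 10.7% of all genes). Among 22 maternally expressed genes 9 passed at the morula stage, with 2 higher and 1 lower in each comparison and medians of 0.19 and 0.17, which turned to -0.51 and -0.13 in DESeq2. Against parth465 such counts are near the 16.2% and 15.4% of all genes called higher and lower, and against parth200 those shares were 6.17% and 7.5%. Igf2r, the receptor that clears IGF2, was higher in fertilized morulae by 0.49 (adjusted p = 0.0447) and 0.54 (adjusted p = 0.0102) in edgeR. Grb10, a growth factor receptor adaptor, differed by -0.95 from parth200 (adjusted p = 0.0378, edgeR) and by -0.26 from parth465 (adjusted p = 0.563). Meg3, a noncoding RNA, differed by -1.002 (adjusted p = 0.167) and -1.33 (adjusted p = 0.0266) in edgeR. Of these genes 10 passed at the 4-cell stage, with 0 called against parth200 in edgeR (1 at an unadjusted p under 0.05, 0 in DESeq2) and 1 called higher against parth465.

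The enzymes of the mark itself were compared over 14 genes of Polycomb repressive complex 2 and the H3K27 demethylases. At the morula stage 1 of 11 tested was higher and 1 lower against parth200, and 5 and 2 against parth465, where 6.17% and 7.5% of all genes were called higher and lower against parth200 and 16.2% and 15.4% against parth465. The histone-binding subunit Rbbp4 was higher in fertilized morulae by 0.34 (adjusted p = 0.0150) and 0.75 (adjusted p = 5.86e-09) in edgeR, and its relative Rbbp7 was lower by 0.49 and 0.66. Rbbp7 is X-linked, and 11 of 23 fertilized morula controls but no parthenote had Y-linked counts. The part of X chromosome number was not tested. The methyltransferase Ezh2 differed by 0.10 (adjusted p = 0.651) and 0.37 (adjusted p = 0.0188). Of 12 tested in 4-cell embryos, 0 were called against parth200 in edgeR (3 lower at an unadjusted p under 0.05, and 3 lower in DESeq2), and 5 were higher and 1 lower against parth465, beside 10.7% and 9.6% of all genes. More of all genes, too, were called against parth465 than against parth200.

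Embryos of the 2 kinds also differed in genes that mark the progress of the morula. Of 10 morula and trophectoderm genes 9 were tested, and 6 were lower in fertilized morulae against each parthenote experiment (5 and 6 without the 3 embryos), where 7.5% and 15.4% of all genes were called lower. None was called higher. At an unadjusted p under 0.05, 2 of the 9 were higher against parth465 and 0 against parth200, in edgeR and in DESeq2. Without the 3 embryos 0 were higher against parth465 in edgeR. Their summed level was 602 to 2715 CPM (median 1550) in fertilized morulae, 605 to 6277 (median 3393) in parth200 and 2208 to 6407 (median 3345) in parth465, with Elf5 at 0 in all 3 groups. Cdx2, a trophectoderm transcription factor, was lower by 1.16 (adjusted p = 0.00024) and 1.07 (adjusted p = 0.000156) in edgeR, and the keratin Krt8 by 1.22 and 1.32. Their part in the results for the members was not tested. Summed oocyte genes were alike in range, 5.55 to 43.4 CPM in fertilized morulae and 9.59 to 59.6 over both parthenote groups. At the 4-cell stage 5.28% and 9.6% of genes were called lower, and 1 of 5 tested trophectoderm genes, Gata3, was among them in both comparisons.

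**Figure D5:**
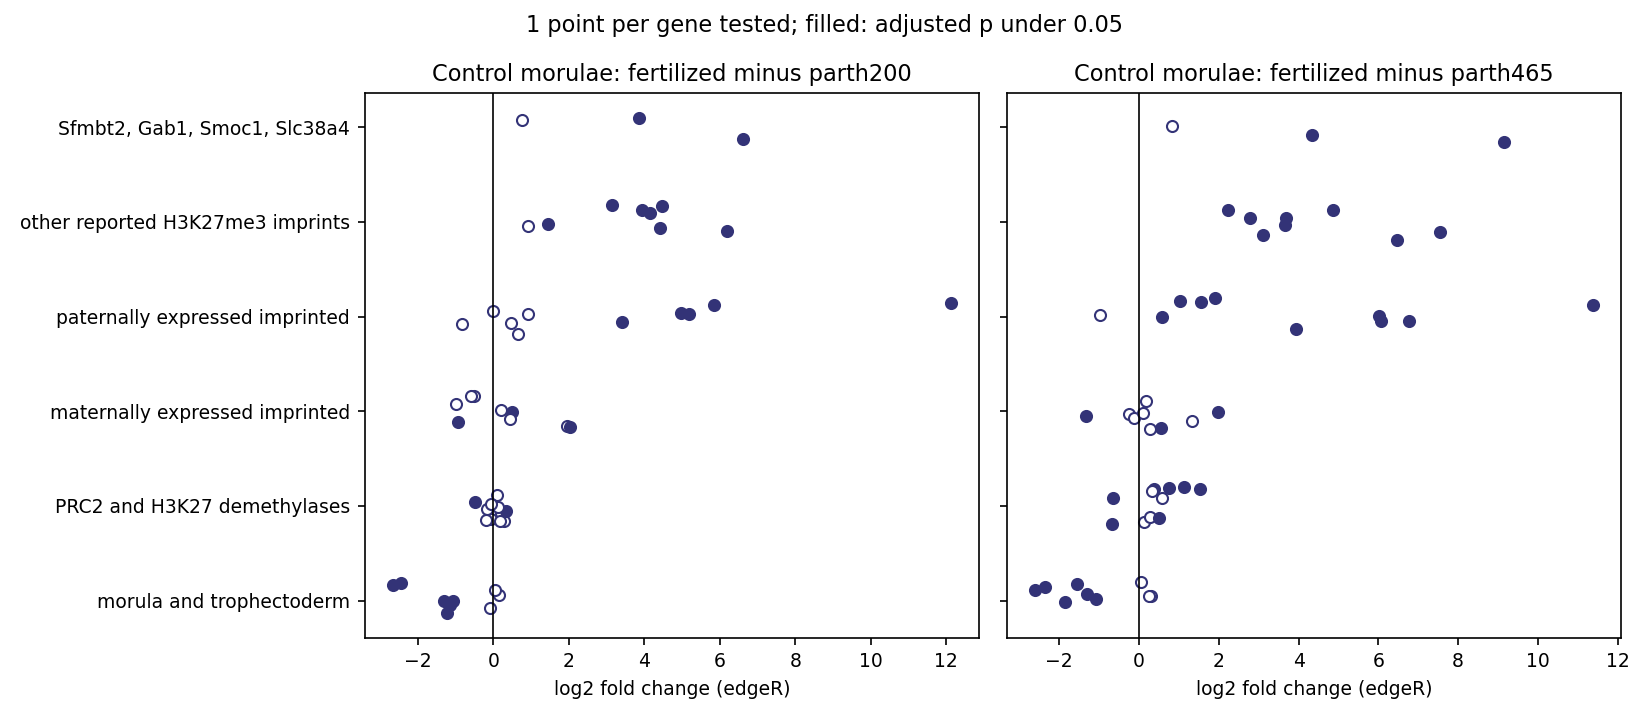
Log2 difference, fertilized minus parthenote control morulae, for the tested genes of each list against parth200 and parth465 in edgeR, with 1 point per gene, filled for an adjusted p under 0.05. Genes of the maternal H3K27me3 list lie above 0, with medians of 4.05 and 3.67, and 6 of 9 tested morula and trophectoderm genes were called lower in each comparison.

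Genes whose log2(CPM + 1) followed each member most closely over the 133 control embryos at the 4-cell and morula stages were ranked by Pearson's r among 9056 genes, as a description of embryos that share stage and fertilization. For Sfmbt2 these were the amino acid transporter Slc38a1 (0.84), the collagen-modifying enzyme Plod2 (0.79) and Kcnq1ot1 (0.75). Slc38a4 had Slc38a1 (0.85), Plod2 (0.83) and the noncoding RNA Lincenc1 (0.78). Slc38a1 lay at 11.8 ± 10.1 CPM in fertilized morulae and at 0 in all 4 parthenote groups. For Gab1 the closest were the transcription factor Sall1 (0.84), Bbx (0.83) and Lincenc1 (0.81), which were already high in fertilized 4-cell embryos, Sall1 at 11.01 ± 10.3 CPM.

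Smoc1 had another set: the surface antigen gene Ly6a (0.74), the acyltransferase Mboat1 (0.70) and the adhesion receptor Cd97 (0.68). Ly6a was at 499 ± 264 CPM in fertilized morulae and also at 163 ± 146 and 150 ± 169 in parth200 and parth465 morulae, against 0.492 ± 1.495 and 0.130 ± 0.513 in their 4-cell embryos. The genes nearest to Smoc1 thus followed stage in both kinds of embryo, and Slc38a1, nearest to Sfmbt2 and Slc38a4, was at 0 in control parthenotes. Kcnq1ot1 was not: in 4-cell controls it was at 1.79 ± 3.28 CPM in parth200 and 0.975 ± 3.96 in parth465, against 3.24 ± 5.70 in fertilized embryos, and 13 of 47 parthenotes were above the fertilized median.

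The study itself was built on 2 microRNAs, shown here because their seeds, bases 2 to 8 in capitals, decide which messages they can pair with (RefSeq, GRCm38.p6).
miR-200c-3p: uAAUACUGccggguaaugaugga
miR-465c-3p: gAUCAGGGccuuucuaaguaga
The seeds share no family. The letters CAGTATT, which pair with the miR-200c-3p seed, occur once in the annotated 3′ untranslated region of Sfmbt2 and once in that of Slc38a4, and not in those of Gab1 and Smoc1, and 13.4% of 19278 genes hold them. The letters CCCTGAT for miR-465c-3p occur once in Sfmbt2 and in none of the other 3, and 8.31% of genes hold them. Only the message strand was searched, and a match is a description of letters.

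No member that passed the count filter was called after injection of either microRNA. In 15 comparisons of a dose with its own controls, members passed the filter in 16 of 60 cases, and the smallest adjusted p was 0.717 by edgeR. This was Gab1 in parthenote morulae with the high dose of miR-200c-3p, at -1.79 (SE 0.84, unadjusted p = 0.0365). The other log2 differences lay between -0.80, for Smoc1 in the same embryos, and 0.45, with SEs from 0.31 to 0.84, so changes of moderate size could not have been seen. Over all genes, 13 of the 15 comparisons called 0% and the other 2 called 0.0188%, and at an unadjusted p under 0.05 they held 94 to 1857 genes.

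Of the 44 cases below the filter 36 could be fitted without it, and edgeR then called 8, all in parthenotes with miR-200c-3p. Each rested on at most 2 embryos with a count in either group. Smoc1 was called lower with the low dose at the 2-cell stage (0 of 26 embryos against 1 of 28 controls, adjusted p = 0.00112) and at the 4-cell stage (0 of 23 against 2 of 24, adjusted p = 0.00134), and with the mid dose at the 4-cell stage (1 of 22 against 2 of 24, adjusted p = 0.0189). Gab1 was called lower with the mid dose at the 4-cell stage (0 of 22 against 2 of 24, adjusted p = 0.00174). The other 2 genes were called from as few embryos. Slc38a4 was called lower at the 2-cell stage with the low dose (adjusted p = 0.0182) and the mid dose (adjusted p = 0.0319), from 1 of 28 controls, and in low-dose morulae (1 of 24 against 2 of 20, adjusted p = 0.0461). Sfmbt2 was called higher with the high dose at the 4-cell stage (adjusted p = 0.0152), from 31 counts in 1 of 24 embryos against 2 counts in 1 of 24 controls. Without the filter 6.13% and 7.17% of all genes were called for the low and mid dose at the 2-cell stage, 6.97%, 7.39% and 7.85% for the low, mid and high dose at the 4-cell stage, and 1.75% for low-dose morulae.

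Binding of Argonaute to member transcripts was looked for in the editing assay of 2-cell parthenotes, in which an adenosine deaminase fused to AGO2 marks RNAs by editing. Of the members, Sfmbt2 and Smoc1 were listed in the intron table and none in the tables of 3′ untranslated or coding regions. The Sfmbt2 intron value was above 0 in 3 of 15 embryos labelled abe, taken here as the editor without AGO2, in 2 of 23 with the AGO2 fusion, and in none of the 27 and 28 embryos with added miR-200c-3p and miR-465c-3p. For Smoc1 it was above 0 in 2 of 27 embryos with AGO2 and miR-200c-3p and in no other. Neither reached the 10 embryos with editing that were required for a limma test. Over 3595 introns, 0.0556% were called between the AGO2 fusion and the abe embryos, and 0% when either microRNA was added.

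The microRNA cluster within Sfmbt2 was present in sperm, the source of the paternal genome. Inside the gene RefSeq places 72 hairpins with 70 mature names, all among the 1978 listed in 4 sperm libraries. Together they made up 1147, 1520, 396 and 527 RPM (reads per 1000000 reads) in the 4 libraries (897 ± 529, SD, n = 4), so the first pair of libraries held more than the second. A mean above 10 RPM was reached by 16 of them, and 11 were at 0 throughout. The most abundant was miR-467e-5p at 169 ± 90.2 RPM, 124th in rank, followed by miR-467d-5p at 113 ± 73.0 and miR-669p-5p at 113 ± 76.5 RPM. Several of these microRNAs come from near-identical copies, between which reads cannot be told apart.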

How the data were processed

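Single embryos, 2-cell editing parthenotes and sperm were measured, and groups and numbers were read from sample titles. The members and gene lists were chosen with earlier results of these data known. The authors deposited expected counts, made with RSEM on mm10 per the labels' protocols; featureCounts, STAR, FastQC, cutadapt, DESeq2 1.48.2 and R 4.5.1 stand in the submitters' processing notes. The deposited editing signal (EPKM, a unit not spelled out) and the deposited sperm RPM, from which an added 1 was subtracted, were used as given; 3 unmapped columns in each editing table were not used. Expected counts were rounded and fitted with edgeR 4.0.16 in R 4.3.3 (TMM, filterByExpr by group, quasi-likelihood, Benjamini-Hochberg, threshold 0.05), with SE taken from the log2 change and F. Members below the filter were compared on log2(CPM + 1) by permutation. Introns were tested with limma 3.58.1. The scripts were tested on simulated counts. Genes named were the 4 members, up to 6 per list past the threshold by the larger of their 2 adjusted p-values, Xist, and the 3 most correlated genes per member among those reaching a group mean of 10 CPM, without Gm and Rik symbols. Alternatives were DESeq2 1.42.0, other scaling, no filter, deeper embryos, the embryo number of the title as a block, and, chosen after seeing the data, omission of 3 fertilized morulae or of the highest parthenote. Between groups, same-numbered embryos deviated together weakly at most (mean r -0.0085 to 0.12 over the fits). The highest mean was between control and miR-200c-3p fertilized morulae, where other pairs had -0.0019. Numbers were not taken as pairs in the main fits.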

Additional observations from a re-analysis of the deposited data

Results flagged for a closer look

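The change of Smoc1 from the 4-cell stage to the morula differed between fertilized embryos and parth465 parthenotes by the interaction term of the edgeR quasi-likelihood fit (adjusted p = 0.000879). Its mean went from 3.40 to 15.5 CPM in fertilized controls and from 0 to 9.18 CPM in parth465, where none of 23 4-cell embryos had a count. The adjusted p was 0.000562 to 0.0271 over the alternatives. The same term against parth200, where 2 of 24 4-cell embryos had counts, had an adjusted p of 0.798, and the parthenote experiments were not compared with each other in this term.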

How the results depend on the processing

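Of 367 recomputed values 309 stayed the same. For a member difference this means the same direction and side of the threshold. For a number of genes or introns called it means a number close to that of the main fit. The 15 called member differences between fertilized embryos and parthenotes stayed called in all 73 alternatives run on them (largest adjusted p 0.0201, edgeR or DESeq2), and the 3 that were not called stayed so in 19 (smallest 0.123). Among the 73 are fits without the highest parthenote or without the 3 fertilized morulae. These omissions, chosen after seeing the data, favour a larger difference and are no independent check of the calls. Without the low-count filter edgeR called 3142, 3893 and 5070 genes between 4-cell controls (fertilized against parth200, against parth465, and parth465 against parth200), 3533 between injected 4-cell embryos against parth200, 2194 between morula controls against parth200, and 1000 and 1261 interactions. For the microRNA comparisons it then called 1206, 1410, 1522, 1350, 1433, 278, 338, 189, 1029, 277, 1548, 1364, 1601, 539 and 347 genes, where the filter left 0 or 2, and the cause was not tested. The number in each embryo's title was left out of the main fits and used as a block only among these alternatives. It counts embryos within a group. It is not the experimental replicate in which eggs were pooled, which was not modelled. With this number as a block edgeR called 1026 genes between parthenote morulae, 102 and 272 interactions, and 519 genes at the mid dose of 2-cell parthenotes. It also called 4 in fertilized morulae, 1 each in mid-dose 4-cell, high-dose morula and low-dose miR-465c-3p 4-cell embryos and 0 at the high 4-cell dose. DESeq2 size factors gave 1 gene at the high 4-cell dose and 3 in high-dose miR-465c-3p morulae. Intron calls went from 2 to 1 with a pseudocount of 0.1 or the block, and to 0 without the filter. Directions that turned were all of values not called: with the block, parth465 minus parth200 for Gab1 at the 4-cell stage (0.43) and Smoc1 at the morula stage (0.41), the Slc38a4 interaction (0.98, and 0.23 with DESeq2 size factors), and microRNA effects on Smoc1 (0.0101, 0.37 and 0.00974), Gab1 (0.60) and Slc38a4 (-0.12 and 0.16). Stage changes of parth465 that were 0 in the main fit had no direction to turn. Under the block they were -0.038 for Smoc1 and -0.061 for Slc38a4 (4-cell minus 2-cell), and 0.16 for Sfmbt2 (morula minus 4-cell). With DESeq2 size factors Gab1 in fertilized morulae turned to -0.000501. Gab1 in 4-cell parthenotes became lower in parth465 with DESeq2 (-2.77, adjusted p = 0.0112) and in embryos of at least 1000000 counts (-2.73, adjusted p = 0.00353). Slc38a4 lost its call between parthenote morulae under the block (adjusted p = 0.137). Counts of a few reads per embryo limit Sfmbt2 and all members at the 2-cell stage.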
